A study of Mus musculus with 6 samples.

Results

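Cell division genes were examined in hearts of desmin-null mice with and without TNF-α overexpression. The group is a list of 38 gene symbols: 10 genes of DNA replication, 12 of mitosis, 12 cyclins and cyclin-dependent kinases, and 4 kinase inhibitors. The members were chosen by their known roles, not by their values in these hearts, and 37 of the 38 were measured among 18193 genes. Ccnb1, which encodes a mitotic cyclin, has no probe set named for it alone and was not analysed here. For each gene the brightest probe set, by its mean over the 6 arrays, was taken. The TNFαDes-/- group had 3 arrays from hearts of mice 3 months old on a mixed 129SV/C57 background that lack desmin and overexpress TNF-α in the heart. The Des-/- group had 3 arrays from hearts of mice of the same age on the 129SV background that lack desmin only. Desmin forms intermediate filaments that link the contractile apparatus of muscle cells, and both groups lack it, so the groups differ in the transgene and in the strain background, which cannot be told apart. The sources used here do not name the promoter that drives the transgene. The labels speak of RNA pooled from 3 hearts a genotype, and the series text of 3 mice a genotype. Whether the arrays of a group hold separate animals is not clear, and the p-values cover only the spread between arrays, which may be technical.

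Cells enter division when D-type cyclins, bound to the kinases Cdk4 and Cdk6, and then cyclin E with Cdk2 phosphorylate the retinoblastoma protein and release E2F factors, which switch on genes of DNA replication. Cyclin A with Cdk2 then drives DNA synthesis, and cyclins A and B with Cdk1 drive mitosis. Inhibitors of the Cip/Kip and INK4 families hold these kinases in check. Most cardiomyocytes of the adult mouse heart have left the cell cycle, and much of the remaining division takes place in fibroblasts, endothelial cells and immune cells.

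Promoters of 30 of the 38 members were found in the RefSeq table (GRCm38.p6), as windows of 250 bases before to 50 bases after a gene's start. Promoters of Cdkn1a and Mki67 are shown here. Cdkn1a, which encodes the inhibitor p21, had the largest difference between the groups among the members, and Mki67, the classical proliferation marker, is shown as an example of the mitotic genes, chosen after its values were seen. The Cdkn1a window lies at chr17:29090729-29091028 on the plus strand, and capitals mark ACATGT, a sequence that reads the same on both strands and fits the half-site pattern bound by p53, which is known to act on this gene. The Mki67 window lies at chr7:135716330-135716629 on the minus strand, and capitals mark 3 motifs on either strand. The first is CCAAT, the box bound by NF-Y, and its reverse complement. The second is TTTGAA, the element known as CHR that occurs in genes switched on late in the cell cycle. The last is GGCGGGA, the core of the E2F site. No matches overlap in either window. Both are written from 5′ to 3′ on the strand of the gene.
Cdkn1a promoter, first start: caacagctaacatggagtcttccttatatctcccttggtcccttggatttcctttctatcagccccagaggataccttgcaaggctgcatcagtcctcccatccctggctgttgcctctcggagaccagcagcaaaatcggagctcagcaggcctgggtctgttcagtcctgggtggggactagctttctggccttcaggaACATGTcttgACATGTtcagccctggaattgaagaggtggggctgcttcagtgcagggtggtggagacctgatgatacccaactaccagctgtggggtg
Mki67 promoter: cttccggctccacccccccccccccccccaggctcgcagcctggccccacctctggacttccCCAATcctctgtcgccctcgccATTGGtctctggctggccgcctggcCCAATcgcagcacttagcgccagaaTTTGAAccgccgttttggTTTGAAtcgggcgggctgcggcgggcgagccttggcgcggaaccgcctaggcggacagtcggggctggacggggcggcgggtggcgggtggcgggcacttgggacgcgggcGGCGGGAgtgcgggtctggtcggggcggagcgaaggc

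The Cdkn1a window holds 2 copies of ACATGT with 4 bases between them, and none of the other 3 motifs. Searched on both strands, 106 of 27025 genes (0.392%) hold 2 or more copies of ACATGT in a promoter window, and Cdkn1a is the only member with 1 or more copies, against 6.14% of all genes and 1 of 15 genes of a list of p53 targets, Phlda3. The window of the second Cdkn1a start holds none of the 4 motifs. The Mki67 window holds 3 copies of the NF-Y box, 2 of the CHR element and 1 of the E2F core. The NF-Y box was found in 23 of the 30 members (76.7%) and 41.1% of all genes. The CHR element was found in 10 of the 30 members (33.3%) and 20.2% of all genes. By role it was found in 7 of 10 mitotic genes, 1 of 9 replication genes, 2 of 8 cyclins and kinases and none of 3 inhibitors. The E2F core was found in 11 of the 30 members (36.7%) and 12.7% of all genes. These matches describe letters in these windows, not binding. ACATGT was added to the search after the Cdkn1a sequence was seen.

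The deposited log2 values had nearly equal medians, at 5.02 to 5.07 on the TNFαDes-/- arrays and 5.04 to 5.08 on the Des-/- arrays. The 99th percentile was 12.26 to 12.31 on the TNFαDes-/- arrays, against 12.27, 11.75 and 11.69 on the Des-/- arrays, so Des-/- replicate 1 stood apart from the other arrays of its group. Over the members, the SD of the log2 difference was 0.16 between Des-/- replicates 2 and 3 but 0.32 and 0.33 between each of them and replicate 1. Results are therefore also given without that array and after quantile normalization, which gives all arrays 1 distribution. The log2 ratio of the 3′ over the 5′ probe sets of Gapdh was 0.32 ± 0.04 in TNFαDes-/- and -0.01 ± 0.03 in Des-/- hearts (SD, n = 3 each), a measure of RNA or labelling quality that moved with the group. All 8 cardiomyocyte markers lay above the median of every array and none passed the test with all arrays, but 7 were higher without Des-/- replicate 1. Without that array 36.2% of all genes above every median were also higher. After quantile normalization none of these markers was higher and 2, Ryr2 and Tnni3, were lower. Their summed linear signal was 179097 to 183521 in TNFαDes-/- and 117276 to 190000 in Des-/- hearts. Of 10 macrophage markers 6 were higher and 1 was lower in TNFαDes-/- hearts, with a summed signal of 11520 to 11835 in TNFαDes-/- and 7379 to 9728 in Des-/- hearts. Of 6 endothelial markers 3 were lower (summed signal 1938 to 1974 in TNFαDes-/- and 2240 to 2927 in Des-/- hearts), and none of 8 lymphocyte markers passed the test (293 to 329 in TNFαDes-/- and 270 to 329 in Des-/- hearts). The sums of the groups also did not overlap for 7 fibroblast markers (25316 to 26101 in TNFαDes-/- and 16099 to 24288 in Des-/- hearts), for 4 neutrophil markers, none above every median (110 to 113 in TNFαDes-/- and 81.5 to 90.4 in Des-/- hearts), or for 3 erythroid markers (91.7 to 103 in TNFαDes-/- and 215 to 342 in Des-/- hearts). Of the fibroblast markers 2 were higher as deposited, and after quantile normalization 1 was higher and 3 were lower. Of the erythroid markers only Alas2 passed the test (-1.75, limma adjusted p = 0.000534). Hba-a1 and Slc4a1, both below every median, differed by 0.09 and 0.03. The part of these markers and of RNA quality in the results on cell division genes was not tested. In bulk tissue, fewer cells of a type and less RNA per cell cannot be told apart.

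The engineered genes did not check the labels. Tnf ranged over 5.73 to 6.09 (log2) on the 3 TNFαDes-/- arrays, against 5.79 to 5.97 on the 3 Des-/- arrays, with overlap (difference 0.07 ± 0.12, SE; limma adjusted p = 0.746). Des read 8.75, 8.88 and 8.73 on the TNFαDes-/- arrays, against 8.42, 8.43 and 8.33 on the Des-/- arrays, far above the array medians in both groups although both are labelled as lacking desmin. It was 0.39 ± 0.10 higher in TNFαDes-/- hearts (adjusted p = 0.0219). The sources used here do not place the probes relative to the transgene or the deletion, so neither gene tests the genotypes.

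The files hold no detection calls, so the median of each array was used to describe which members carried signal. Of the 37 measured members, 22 lay above the median on every array, 11 lay below it on every array and 4 lay on both sides. By role, 8 of 10 replication genes, 8 of 11 cyclins and kinases and all 4 inhibitors lay above every median. Of the 12 mitotic genes only Mki67 and Cdc20 did. The members below every median were Rrm2, Tyms, Birc5, Aurka, Aurkb, Bub1, Kif11, Kif20a, Nusap1, Ccne2 and Ccnb2, and no fold is given for them, since nothing shows that they exceed background. Top2a, Plk1, Prc1 and Ccna2 lay above the medians of 1, 4, 2 and 4 arrays.

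**Figure D1:**
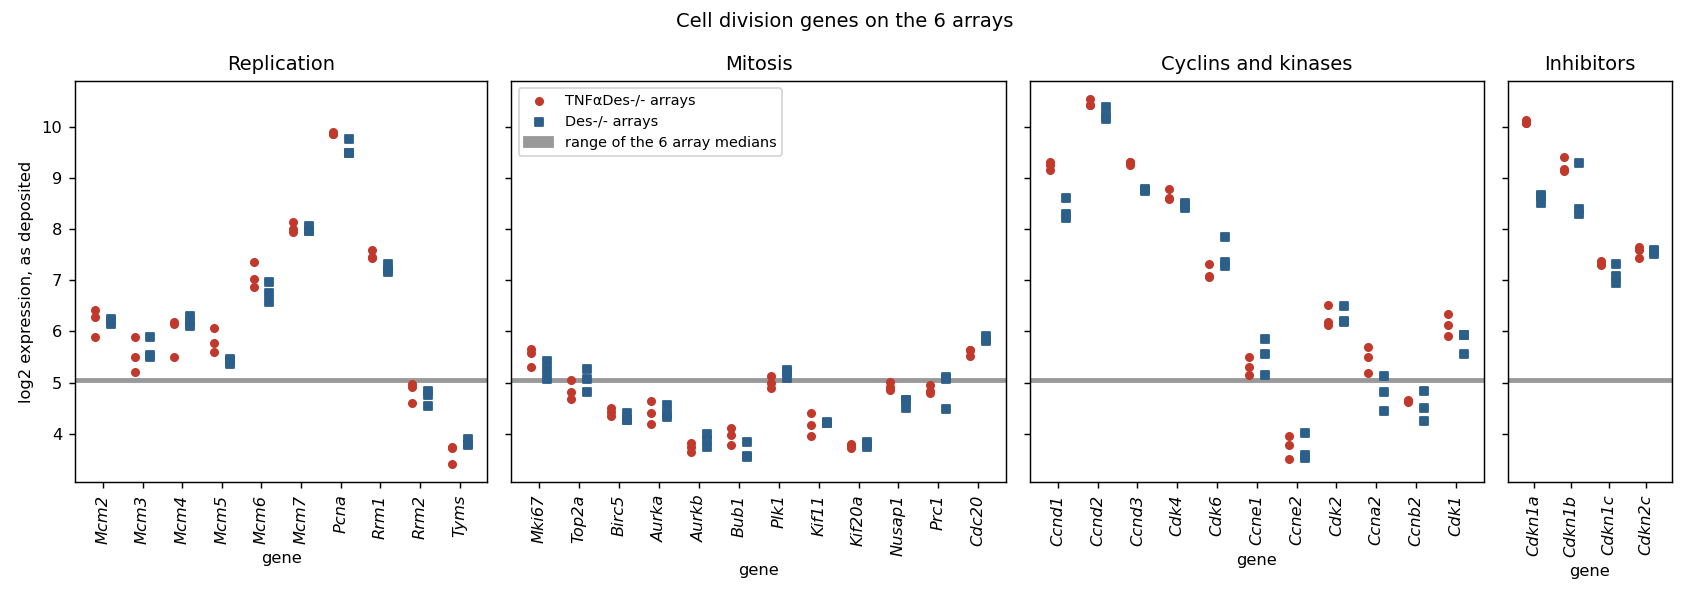
Deposited log2 expression of the 37 measured members on each array, by role, with TNFαDes-/- arrays as circles to the left and Des-/- arrays as squares to the right of each gene; the grey band spans the 6 array medians (5.02 to 5.08). All 4 inhibitors lie above the band, 10 of the 12 mitotic genes lie below it or on both sides of it, and Cdkn1a shows the widest gap between the groups.

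Of the 37 members, 4 were higher in TNFαDes-/- hearts and none was lower (limma, Benjamini-Hochberg adjusted p below 0.05 over all 18193 genes). The 4 were the inhibitor gene Cdkn1a and the cyclin genes Ccnd1, Ccnd3 and Ccna2. They make up 10.8% of the members, where 21.3% of all genes differed, 15.2% higher and 6.05% lower. An unadjusted p below 0.05 was found for 11 of the 37 members and for 34.3% of all genes. Among members above every array median the groups did not overlap for 9 of 22, where 47.9% of all genes as bright had groups apart. The median difference was 0.10 over the members and 0.04 over all genes, on the log2 scale. Of these 22 members 3 (13.6%) were higher and none was lower, where 23.0% of such genes were higher and 7.16% lower. None of the 11 members below every median passed the test, and 3.56% of all genes as dim did.

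By role, the median difference was 0.39 for the inhibitors, 0.19 for the cyclins and kinases, 0.08 for the replication genes and -0.03 for the mitotic genes. All 4 inhibitors but only 2 of the 12 mitotic genes lay above every array median. Over all genes the median was 0.14 for those above every array median and -0.03 for those below (0.0091 and -0.01 after quantile normalization). The part of brightness in the order of the roles was not tested. No replication gene and no mitotic gene passed the test. After quantile normalization the medians were 0.25, 0.04, 0.0024 and -0.01, the median over all genes was -0.0038, and 5 members were higher (Cdkn1a, Ccnd1, Ccna2, Mcm5 and Nusap1) and 1, Cdk6, was lower, against 12.0% and 10.4% of all genes (22.5% in either direction). Without Des-/- replicate 1, 9 members were higher and none was lower, against 23.4% and 8.56% of all genes (32.0% in either direction). These 9 were the 4 above with Ccnd2, Cdkn1b, Cdkn1c, Pcna and Nusap1. The median SD within a group was 0.139 in TNFαDes-/- and 0.127 in Des-/- hearts for the members, and 0.121 and 0.136 in the same groups for all genes.

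**Figure D2:**
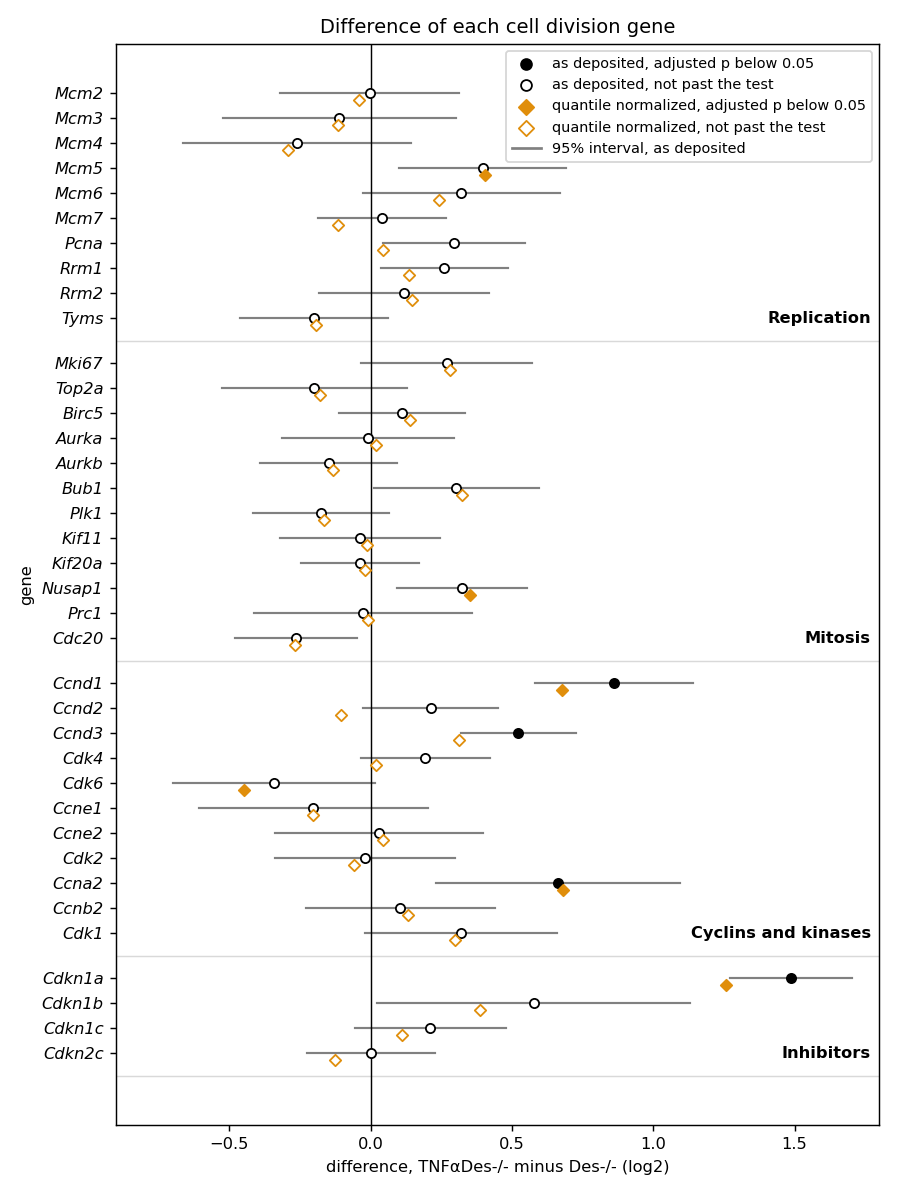
Difference in log2 expression, TNFαDes-/- minus Des-/-, for each measured member: circles with 95% intervals are from the deposited values, diamonds from quantile-normalized values, and filled symbols have an adjusted p below 0.05 (3 arrays a group). Cdkn1a at 1.49, Ccnd1 at 0.86 and Ccna2 at 0.66 are filled under both, Ccnd3 only as deposited, and every replication and mitotic gene is open as deposited.

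The inhibitors had the largest single difference. Cdkn1a encodes p21, which binds and blocks cyclin-kinase complexes and is a well-known target of p53. Its log2 values were 10.07, 10.08 and 10.14 on the TNFαDes-/- arrays, against 8.65, 8.66 and 8.52 on the Des-/- arrays. All 3 TNFαDes-/- arrays lay far above all 3 Des-/- arrays, and each group was tight. Cdkn1a averaged 10.10 ± 0.03 in TNFαDes-/- and 8.61 ± 0.08 in Des-/- hearts (SD, n = 3 each), a difference of 1.49 ± 0.09 (SE; 95% interval 1.27 to 1.70), or 2.80-fold (limma adjusted p = 4.58e-05). After quantile normalization the difference was 1.26 (adjusted p = 0.000106), and it passed the test in 18 of 18 alternative settings. Its second probe set averaged 7.38 ± 0.35 in TNFαDes-/- and 6.01 ± 0.47 in Des-/- hearts (SD, n = 3 each), again without overlap between the groups (1.37 ± 0.25; adjusted p over all probe sets = 0.00922).

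The other inhibitors gave no call. Cdkn1b encodes p27, the Cip/Kip inhibitor linked to quiescence, and read 9.41, 9.16 and 9.13 on the TNFαDes-/- arrays, against 9.30, 8.29 and 8.38 on the Des-/- arrays. Des-/- replicate 1 lay among the TNFαDes-/- arrays and the other Des-/- arrays lay below them. The difference was 0.58 ± 0.24 with all arrays (adjusted p = 0.130) and 0.90 without that array (adjusted p = 0.00127). After quantile normalization it was 0.39 (adjusted p = 0.170). A second Cdkn1b probe set, below every array median, gave -0.31 (adjusted p over all probe sets = 0.251). Cdkn1c, which encodes p57, the third member of that family, read 7.30, 7.37 and 7.32 on the TNFαDes-/- arrays, against 7.32, 6.94 and 7.09 on the Des-/- arrays. Des-/- replicate 1 again lay with the TNFαDes-/- arrays (0.21 ± 0.12, adjusted p = 0.247; 0.31 without it, adjusted p = 0.0358). After quantile normalization the Cdkn1c difference was 0.11 (adjusted p = 0.478). Cdkn2c, which encodes the INK4 inhibitor p18, read 7.59, 7.43 and 7.65 on the TNFαDes-/- arrays, against 7.59, 7.50 and 7.57 on the Des-/- arrays. The groups overlapped and the difference was 0.0010 ± 0.10 (95% interval -0.23 to 0.23).

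D-type cyclins carry growth signals to Cdk4 and Cdk6. Ccnd1, which encodes cyclin D1, read 9.16, 9.24 and 9.30 on the TNFαDes-/- arrays, against 8.61, 8.29 and 8.22 on the Des-/- arrays. The groups did not overlap, with the highest Des-/- value on replicate 1. Ccnd1 averaged 9.24 ± 0.07 in TNFαDes-/- and 8.38 ± 0.21 in Des-/- hearts (SD, n = 3 each), 0.86 ± 0.12 higher (95% interval 0.58 to 1.14) or 1.82-fold (adjusted p = 0.00198). It passed the test in 18 of 18 alternative settings, with differences of 0.63 to 0.98. All 3 of its probe sets were higher, by 0.78 to 0.91.

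Ccnd3, which encodes cyclin D3, read 9.31, 9.25 and 9.30 on the TNFαDes-/- arrays, against 8.75, 8.77 and 8.77 on the Des-/- arrays. The groups were tight and did not overlap (0.52 ± 0.09, 1.44-fold, adjusted p = 0.00448). After quantile normalization the difference was 0.31 and no longer passed the test (adjusted p = 0.0721). Nor did Ccnd3 pass after cyclic loess, or after quantile normalization without Des-/- replicate 1. It passed in 14 of 18 alternative settings, with differences of 0.20 to 0.54. Its other 2 probe sets, both above every array median, gave 0.21 (adjusted p = 0.339) and 0.27 (adjusted p = 0.276). The mean of all 3 Ccnd3 probe sets gave 0.33 (adjusted p = 0.0299).

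Ccnd2, which encodes cyclin D2, has 7 probe sets that did not give 1 answer. The brightest read 10.43, 10.54 and 10.42 on the TNFαDes-/- arrays, against 10.39, 10.21 and 10.15 on the Des-/- arrays, a small gap that did not pass the test (0.21 ± 0.10, adjusted p = 0.190; -0.11 after quantile normalization). Of its probe sets 4 were higher over all probe sets tested, by 0.61, 0.41, 0.74 and 0.94, where 9.94% of all probe sets were higher and 4.93% lower. Of these 4, the one at 0.41 did not pass the test after quantile normalization (0.14, adjusted p = 0.499). The dimmest probe set, below every array median, gave -0.28 (adjusted p = 0.155).

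**Figure D3:**
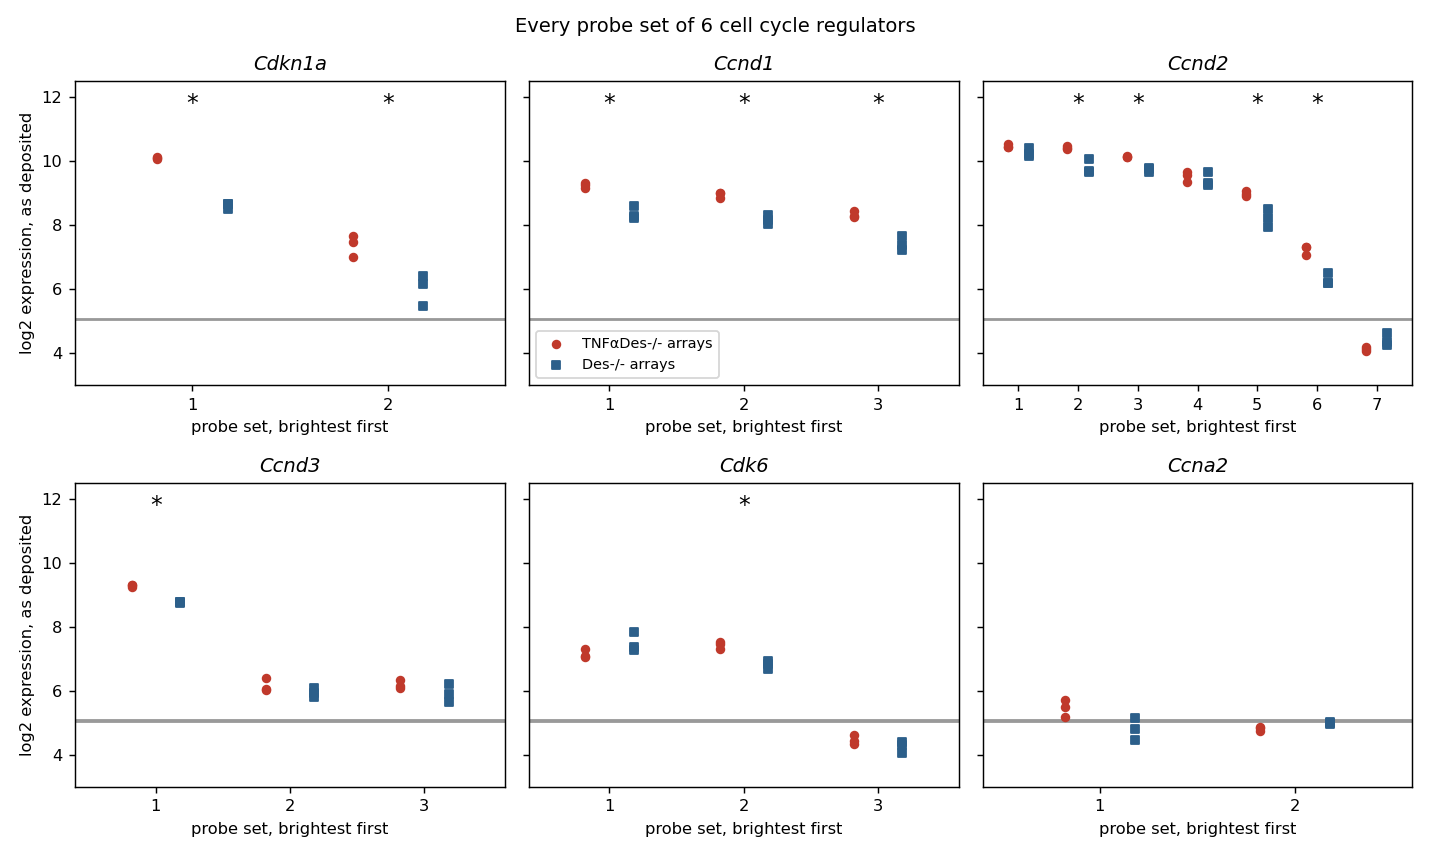
Deposited log2 expression on every probe set of 6 regulators, brightest first, with TNFαDes-/- arrays as circles to the left and Des-/- arrays as squares to the right; the grey band spans the array medians and a star marks an adjusted p below 0.05 over all probe sets, all of these higher in TNFαDes-/- hearts. Both Cdkn1a probe sets and all 3 of Ccnd1 carry a star, 4 of 7 do for Ccnd2, 1 of 3 for Ccnd3 and for Cdk6, and none for Ccna2.

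The partner kinases of the D cyclins gave no call on their brightest probe sets. Cdk4 read 8.58, 8.61 and 8.78 on the TNFαDes-/- arrays, against 8.40, 8.47 and 8.52 on the Des-/- arrays (0.19 ± 0.10, adjusted p = 0.215; 0.02 after quantile normalization). For Cdk6 the brightest probe set read 7.08, 7.31 and 7.07 on the TNFαDes-/- arrays, against 7.84, 7.28 and 7.37 on the Des-/- arrays. These overlapped, and the difference of -0.34 ± 0.16 did not pass the test (adjusted p = 0.163), though it did after quantile normalization (-0.45, adjusted p = 0.0452). The second Cdk6 probe set read 7.54, 7.31 and 7.46 on the TNFαDes-/- arrays, against 6.68, 6.83 and 6.92 on the Des-/- arrays, and was higher (0.62 ± 0.11, adjusted p over all probe sets = 0.00791). The probe sets of Cdk6 therefore disagreed in sign, and no direction is given for the gene.

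Later cyclins and kinases showed 1 call, on a dim probe set. Ccna2, which encodes cyclin A2 of S phase and mitosis, read 5.70, 5.49 and 5.20 on the TNFαDes-/- arrays, against 5.14, 4.45 and 4.82 on the Des-/- arrays. The groups did not overlap, but only 1 of the 3 Des-/- values lay above its array's median, so no fold is given. The difference was 0.66 ± 0.19 (95% interval 0.23 to 1.09; adjusted p = 0.0382). It no longer passed without TNFαDes-/- replicate 1 (0.55, adjusted p = 0.145), TNFαDes-/- replicate 2 (0.65, adjusted p = 0.0879), Des-/- replicate 2 (0.49, adjusted p = 0.120) or Des-/- replicate 3 (0.67, adjusted p = 0.0940). In all, Ccna2 passed in 11 of 17 alternative settings. Adjusted over all probe sets, the same probe set did not pass (adjusted p = 0.0525), and the other Ccna2 probe set gave -0.17 (adjusted p = 0.262). The mean of both Ccna2 probe sets gave 0.25 (adjusted p = 0.165).

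Cdk1, the mitotic kinase, read 5.90, 6.33 and 6.13 on the TNFαDes-/- arrays, against 5.55, 5.93 and 5.92 on the Des-/- arrays. The groups overlapped slightly, and the difference of 0.32 ± 0.15 (95% interval -0.02 to 0.66) did not pass the test (adjusted p = 0.169). Cdk2, which drives entry into S phase, read 6.51, 6.17 and 6.13 on the TNFαDes-/- arrays, against 6.17, 6.19 and 6.50 on the Des-/- arrays (-0.02 ± 0.14, adjusted p = 0.938). Its partner gene Ccne1 read 5.30, 5.49 and 5.16 on the TNFαDes-/- arrays, against 5.15, 5.55 and 5.86 on the Des-/- arrays (-0.20 ± 0.18, adjusted p = 0.476). For both genes the groups overlapped. Ccne2 and the mitotic cyclin gene Ccnb2, both below every array median, differed by 0.03 (adjusted p = 0.924) and 0.10 (adjusted p = 0.672).

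None of the 10 replication genes passed the test, with differences of -0.26 to 0.40 and 95% intervals that reached from -0.66 to 0.69 over the group. Mcm2 to Mcm7 encode the 6 subunits of the helicase that opens DNA at replication origins, and all 6 lay above every array median. Mcm5 had the largest difference of these, with 5.60, 6.06 and 5.77 on the TNFαDes-/- arrays, against 5.47, 5.35 and 5.41 on the Des-/- arrays. The groups did not overlap, but the TNFαDes-/- values were spread widely (0.40 ± 0.13, adjusted p = 0.0608; 0.40 after quantile normalization, adjusted p = 0.0485). With probe sets open to cross-hybridisation left out, this one among them, Mcm5 gave 0.11 (adjusted p = 0.549). The mean of the Mcm5 probe sets gave 0.17 (adjusted p = 0.319). The subunits did not share a direction: the differences were 0.32 for Mcm6, 0.04 for Mcm7, -0.0038 for Mcm2, -0.11 for Mcm3 and -0.26 for Mcm4, with adjusted p-values of 0.177 to 0.988. Other probe sets differed from these: a second one of Mcm2, above every median, gave 0.24 (adjusted p over all probe sets = 0.399), and a dim second one of Mcm6 was higher by 0.42 (adjusted p over all probe sets = 0.0314). Mcm7 had nearly equal values in both groups, at 8.01, 7.95 and 8.15 on the TNFαDes-/- arrays, against 7.96, 8.06 and 7.97 on the Des-/- arrays. For Mcm4, TNFαDes-/- replicate 2 was low at 5.50, where the other TNFαDes-/- arrays read 6.14 and 6.18 and the Des-/- arrays 6.30, 6.19 and 6.11.

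Pcna encodes the clamp that holds DNA polymerase on its template. It read 9.85, 9.86 and 9.90 on the TNFαDes-/- arrays, against 9.77, 9.48 and 9.48 on the Des-/- arrays. Des-/- replicate 1 lay near the TNFαDes-/- arrays: the difference was 0.30 ± 0.11 with it (adjusted p = 0.0919), 0.39 without it (adjusted p = 0.0109) and 0.04 after quantile normalization (adjusted p = 0.748). Rrm1 encodes the large subunit of ribonucleotide reductase, which makes the building blocks of DNA, and read 7.45, 7.44 and 7.58 on the TNFαDes-/- arrays, against 7.20, 7.32 and 7.17 on the Des-/- arrays. The groups did not overlap, but the difference did not pass the test (0.26 ± 0.10, adjusted p = 0.0965), and another of its probe sets gave -0.21. Rrm2, the small subunit of the same enzyme, differed by 0.12 (adjusted p = 0.581) on a probe set below every median, while a second dim probe set was higher by 0.62 (adjusted p over all probe sets = 0.0112). Tyms, which encodes thymidylate synthase, read 3.72, 3.74 and 3.42 on the TNFαDes-/- arrays, against 3.89, 3.80 and 3.78 on the Des-/- arrays, all below the array medians (-0.20 ± 0.11, adjusted p = 0.260).

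None of the 12 mitotic genes passed the test either, with differences of -0.26 to 0.32 and 95% intervals that reached from -0.53 to 0.59 over the group. Mki67, which encodes the proliferation antigen Ki-67 and whose promoter is printed above, read 5.31, 5.58 and 5.65 on the TNFαDes-/- arrays, against 5.43, 5.24 and 5.07 on the Des-/- arrays. The groups overlapped on 1 array each, and the difference was 0.27 ± 0.13 (95% interval -0.03 to 0.57; adjusted p = 0.192). Cdc20, which activates the ubiquitin ligase that starts anaphase, read 5.52, 5.64 and 5.63 on the TNFαDes-/- arrays, against 5.86, 5.81 and 5.92 on the Des-/- arrays. Every TNFαDes-/- value lay below every Des-/- value, but the difference did not pass the test (-0.26 ± 0.09, adjusted p = 0.0804; -0.27 after quantile normalization, adjusted p = 0.0522). The probe sets of Cdc20 disagreed in sign: a second one, also above every median, gave 0.16 with overlapping groups (adjusted p over all probe sets = 0.454).

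Nusap1, which bundles spindle microtubules, read 4.85, 5.01 and 4.92 on the TNFαDes-/- arrays, against 4.65, 4.50 and 4.66 on the Des-/- arrays. All lay below the array medians and the groups did not overlap (0.32 ± 0.10, adjusted p = 0.0516). It passed the test after quantile normalization (0.35, adjusted p = 0.0244) and in 6 of 17 alternative settings in all. A second Nusap1 probe set, also below every median, gave -0.02 with overlapping groups (adjusted p over all probe sets = 0.939). Bub1, a kinase of the spindle checkpoint, read 4.11, 3.77 and 3.98 on the TNFαDes-/- arrays, against 3.57, 3.84 and 3.54 on the Des-/- arrays, with overlap (0.30 ± 0.13, adjusted p = 0.132). Its second probe set, also below every median, went the other way without overlap (-0.17, adjusted p over all probe sets = 0.289).

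Top2a, the topoisomerase that untangles chromosomes, read 4.68, 5.05 and 4.82 on the TNFαDes-/- arrays, against 4.82, 5.07 and 5.26 on the Des-/- arrays (-0.20 ± 0.14, adjusted p = 0.377), and a second probe set gave 0.24 (adjusted p over all probe sets = 0.250). Plk1, a kinase of mitotic entry and spindle formation, read 5.12, 4.89 and 4.99 on the TNFαDes-/- arrays, against 5.08, 5.25 and 5.20 on the Des-/- arrays (-0.18 ± 0.11, adjusted p = 0.282). The groups of both genes overlapped. The spindle kinases Aurka and Aurkb differed by -0.0084 and -0.15, the kinesins Kif11 and Kif20a by -0.04 each, Birc5, a partner of Aurkb on chromosomes, by 0.11, and Prc1, which holds the central spindle together, by -0.03. The adjusted p-values of these 6 genes were 0.376 to 0.973. On Prc1, Des-/- replicate 1 was low at 4.48, where the other Des-/- arrays read 5.11 and 5.08.

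Other genes of the same processes were taken from 4 lists: 37 further replication genes, 34 further mitotic genes, 27 regulators around the retinoblastoma protein and E2F, and 20 targets or regulators of p53. Of 35 measured replication genes, 5 were higher and 1 was lower in TNFαDes-/- hearts, with a median difference of 0.11. Of 34 mitotic genes, 2 were higher and 4 were lower (median 0.02). Of 27 regulators, 4 were higher and 1 was lower (median 0.02). The regulators include the inhibitor genes Cdkn2a, Cdkn2b and Cdkn2d, which are not members. They differed by -0.10, 0.19 and -0.04 and did not pass the test. Of 18 measured p53 genes, 8 (44.4%) were higher and none was lower (median 0.31), where 15.2% of all genes were higher. Of these 18 genes 16 lay above every array median, and 23.0% of all genes as bright were higher. After quantile normalization 8 of the p53 genes were higher and 2 were lower, where 12.0% of all genes were higher and 10.4% lower (17.1% and 14.0% of the bright ones). Without Des-/- replicate 1, 10 were higher and none was lower, where 23.4% of all genes were higher and 8.56% lower (36.2% and 8.99% of the bright ones).

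**Figure D4:**
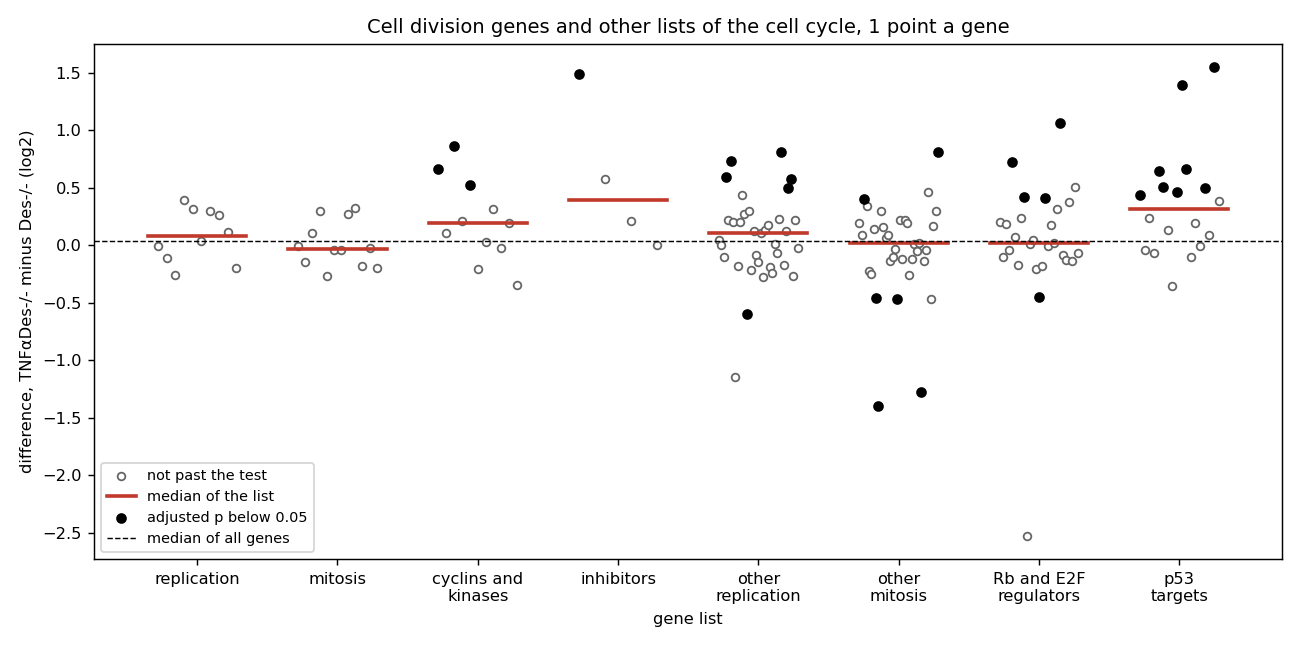
Difference in log2 expression, TNFαDes-/- minus Des-/-, for each gene of the 4 member roles and of 4 further lists, with 1 point a gene; filled points have an adjusted p below 0.05, red bars are list medians and the dashed line is the median of all genes (0.04). The medians of the member inhibitors (0.39) and the p53 genes (0.31) lie highest, and those of both mitotic lists (-0.03 and 0.02) lie at or below the dashed line. That line takes no account of brightness: the median was 0.14 over all genes above every array median and -0.03 over those below.

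Of the p53 list, Trp53inp1, which encodes a stress-induced nuclear protein that acts with p53, read 9.33, 9.14 and 9.49 on the TNFαDes-/- arrays, against 8.03, 7.61 and 7.68 on the Des-/- arrays. Perp, which encodes a membrane protein of desmosomes and a p53 target, read 11.43, 11.34 and 11.39 on the TNFαDes-/- arrays, against 10.26, 9.87 and 9.84 on the Des-/- arrays. In both, no array of the groups overlapped. Trp53inp1 was 1.55 ± 0.14 higher or 2.93-fold (adjusted p = 0.000247) and Perp 1.40 ± 0.13 higher or 2.64-fold (adjusted p = 0.000264), and both passed the test in 18 of 18 alternative settings. Over these the difference was 0.74 to 1.69 for Trp53inp1, lowest with the mean of its probe sets, and 1.07 to 1.53 for Perp. Phlda3 was 0.66 ± 0.12 higher (adjusted p = 0.00554) and Ddit4, a stress-induced inhibitor of mTOR signalling, 0.65 ± 0.14 higher (adjusted p = 0.0135). Of 18 alternative settings, Phlda3 passed the test in 17 and Ddit4 in 13. Lost calls of Ddit4 included those without replicate 1 or 3 of TNFαDes-/- or replicate 2 or 3 of Des-/- (0.56 to 0.64, adjusted p = 0.0549 to 0.0613). After quantile normalization the Ddit4 difference was 0.29 (adjusted p = 0.0300). The list did not move as 1: Ccng1, an early-described p53 target named after its values were seen, read 12.11, 12.02 and 12.04 on the TNFαDes-/- arrays, against 12.58, 11.92 and 11.86 on the Des-/- arrays (-0.06 ± 0.18, adjusted p = 0.847). After quantile normalization Ccng1 was lower (-0.41, adjusted p = 0.00738), as was Gadd45a (-0.46, adjusted p = 0.0314). Without Des-/- replicate 1 the Ccng1 difference was 0.17 (adjusted p = 0.191).

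Among the regulators, Myc, a transcription factor that promotes growth and cell cycle entry, read 7.76, 7.72 and 7.76 on the TNFαDes-/- arrays, against 6.69, 6.72 and 6.64 on the Des-/- arrays. The groups were tight and far apart (1.07 ± 0.09, 2.09-fold, adjusted p = 0.000169), and Myc passed the test in 17 of 17 alternative settings. Cks1b, a small partner of cyclin-dependent kinases, was 0.73 ± 0.17 higher (adjusted p = 0.0164). E2f4, an E2F factor known mainly as a repressor, was 0.42 ± 0.09 higher (adjusted p = 0.0137). Fbxw7, which marks cyclin E and Myc proteins for degradation, was lower (-0.45 ± 0.11, adjusted p = 0.0214). Of 18 alternative settings, Cks1b passed the test in 13, E2f4 in 14 and Fbxw7 in 14. Lost calls of Cks1b included those without replicate 1 or 3 of TNFαDes-/- or replicate 2 or 3 of Des-/- (adjusted p = 0.0618 to 0.0780). Those of E2f4 included the fits without replicate 1 or 3 of TNFαDes-/- or replicate 2 of Des-/- (adjusted p = 0.0501 to 0.0565). Those of Fbxw7 included the fits without any 1 of the TNFαDes-/- arrays (adjusted p = 0.0532 to 0.0809). The mean of the Fbxw7 probe sets gave -0.28 (adjusted p = 0.134), and E2f4 after quantile normalization without Des-/- replicate 1 gave 0.28 (adjusted p = 0.0372).

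Members of the replication list moved in both directions. Rfc3, a subunit of the clamp loader, was 0.81 ± 0.12 higher (adjusted p = 0.00229) and 0.45 higher with the mean of its probe sets. Dbf4, the activator of the origin-firing kinase, was 0.74 ± 0.21 higher (adjusted p = 0.0382) but lay above the median of only 1 array. Cdt1, which loads the helicase at origins, was 0.60 ± 0.15 higher (adjusted p = 0.0229). Geminin, the inhibitor of Cdt1 encoded by Gmnn, was lower, with 8.29, 8.10 and 8.52 on the TNFαDes-/- arrays, against 9.06, 8.85 and 8.79 on the Des-/- arrays (-0.60 ± 0.13, adjusted p = 0.0142). Of the alternative settings, Dbf4 passed the test in 10 of 17, Cdt1 in 11 of 17 and Gmnn in 16 of 18. Lost calls of Dbf4 included those without replicate 1 or 3 of TNFαDes-/- or replicate 1 or 2 of Des-/- (adjusted p = 0.0742 to 0.127). Those of Cdt1 included the fits without replicate 1 or 3 of TNFαDes-/- or replicate 2 or 3 of Des-/- (adjusted p = 0.0646 to 0.0826). Those of Gmnn included the fit without replicate 1 of TNFαDes-/- (adjusted p = 0.0597). The Cdt1 difference was 0.05 and did not pass with probe sets open to cross-hybridisation left out. With the mean of their probe sets Cdt1 gave 0.28 (adjusted p = 0.0409) and Dbf4 0.38 (adjusted p = 0.0519).

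In the mitotic list, Pttg1, which encodes securin, the inhibitor of separase, read 10.45, 10.44 and 10.52 on the TNFαDes-/- arrays, against 11.70, 11.72 and 11.83 on the Des-/- arrays. It was lower in TNFαDes-/- hearts, with no overlap (-1.28 ± 0.09, adjusted p = 9.22e-05), but with probe sets open to cross-hybridisation left out it gave -0.28 (adjusted p = 0.118). Cenpf, a kinetochore protein, read 4.78, 4.51 and 4.47 on the TNFαDes-/- arrays, against 6.31, 5.77 and 5.87 on the Des-/- arrays (-1.40 ± 0.16, adjusted p = 0.000679), with every TNFαDes-/- value below its array's median. The mean of the Cenpf probe sets gave -0.54 (adjusted p = 0.00513). Kif23, a kinesin of cytokinesis, was lower (-0.47 ± 0.11, adjusted p = 0.0184), and Wee1, the kinase that restrains Cdk1, was 0.81 ± 0.16 higher (adjusted p = 0.00753). Of the alternative settings, Kif23 passed the test in 13 of 17 and Wee1 in 17 of 18. Lost calls of Kif23 included those without replicate 3 of either group (TNFαDes-/- adjusted p = 0.0751, Des-/- adjusted p = 0.0797) and with the mean of its probe sets (-0.10).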

How the data were processed

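Heart RNA was measured on 6 one-colour Affymetrix arrays, 3 a group. The values the authors deposited are log2 expression per probe set, made with RMA (version not stated) per the submitters' processing notes. The sources used here do not say whether 1 quantile step covered all arrays. The number of arrays limits the precision. Of 45037 probe sets without controls, 34945 have 1 gene symbol in the platform annotation. For each of 18193 genes the brightest probe set by its mean over the 6 arrays was used, and dim ones were kept. Groups were compared on the deposited log2 values with limma 3.58.1 (lmFit and eBayes, R 4.3.3), two-sided, Benjamini-Hochberg adjusted across all genes, at a threshold of 0.05; single probe sets were adjusted over all probe sets. The fit was tested on simulated data. A linear signal is 2 to the power of the log2 value, summed over a marker list. Named were all members and, of each further list, up to 4 genes past the test with groups that did not overlap, by size. Genes outside this rule were named after their values were seen. Members, lists and alternatives were chosen with earlier results of these data known. The alternatives were other scalings and fits, a replicate block, probe set choices and leaving out arrays. Probe sets named _a_at, _s_at or _x_at were those taken as open to cross-hybridisation, although _a_at marks transcripts of 1 gene. Promoter sequences are from RefSeq (GRCm38.p6); the rule for printing them, members past the test as deposited and after quantile normalization, named Cdkn1a, Ccnd1 and Ccna2, of which Cdkn1a was matched in the table. Mki67 was added later. Figures were drawn with matplotlib 3.10.9.

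Samples with the same replicate number were checked for pairing: the correlations of their deviations from the group means were 0.25, 0.31 and -0.30, so the numbers were not taken to pair the arrays.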

Additional observations from a re-analysis of the deposited data

How the results depend on the processing

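The main settings gave 4 members higher and none lower, and 2768 of all genes higher and 1101 lower. With array weights, under which arrays count unequally, 13 members were higher and 3 lower (Top2a, Cdc20 and Ccne1). Of all genes, 5501 were higher and 2913 lower with these weights. The weight of each array is not given here. Within TNFαDes-/- hearts, replicate 2 also stood apart over all genes, but less so over the members. Over all genes the SD of the log2 difference was 0.25 between it and replicate 1 and 0.28 between it and replicate 3. Between TNFαDes-/- replicates 1 and 3 the SD was 0.18. Over the members these 3 SDs were 0.27, 0.24 and 0.23, in the same order. With Des-/- replicates 2 and 3 left out together, 2 members were higher and 1, Cdk6, lower, with 883 and 704 of all genes; the lone Des-/- array is then assumed to vary like the others. Quantile normalization gave 1 lower member, Cdk6, and 1896 lower genes, cyclic loess 1995 lower genes, and quantile normalization without Des-/- replicate 1 2462 lower genes. The share of called genes that were higher was 71.5% as deposited, 53.6% after quantile normalization, 51.8% after cyclic loess and 48.9% after quantile normalization without Des-/- replicate 1, so directions here are relative to the scaling used. Leaving out each array in turn gave 3 to 9 higher and 0 to 0 lower members, and 1475 to 4257 higher and 557 to 1557 lower genes. The causes of these shifts were not tested.

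With the replicate block, 5 members were higher, Cdkn1b added (0.58, adjusted p = 0.0213), none was lower, and 3042 of all genes were higher and 1236 lower; not every array correlated best with its own number. Over all alternatives, 61 of 71 values of the 4 members past the test stayed past it in the same direction and 10, of Ccnd3 and Ccna2, did not. Of 568 values of the other members, 29 passed the test and 58 changed sign without a call. Of the 16 named genes of the further lists, 40 of 282 values lost the call. No called difference turned its sign. Left to genes in the brighter part of the arrays, 15 members remained to be tested. No detection calls bound the signal, and 10 of the 12 mitotic genes did not exceed every array median.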

Other observations

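Within Des-/- hearts, E2f5 and Fen1 set 1 array apart more than any group difference of the members, and both were named after their values were seen. E2f5, which encodes a repressor E2F factor, read 7.88, 8.05 and 7.60 on the TNFαDes-/- arrays, against 7.98, 11.49 and 11.65 on the Des-/- arrays. Fen1, the nuclease that trims DNA flaps at replication forks, read 8.91, 9.28 and 8.81 on the TNFαDes-/- arrays, against 8.53, 10.92 and 10.98 on the Des-/- arrays. For both genes Des-/- replicate 1 lay with the TNFαDes-/- arrays and far from the other arrays of its own group. With all arrays neither passed the test (E2f5 -2.53, adjusted p = 0.0604; Fen1 -1.14, adjusted p = 0.193). Without Des-/- replicate 1 the differences were -3.72 for E2f5 (adjusted p = 1.81e-05) and -1.95 for Fen1 (adjusted p = 0.000214).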
